A study of Homo sapiens with 2 samples.

Results

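The genes described here encode the human aminoacyl-tRNA synthetases, chosen by name from the gene column of the deposited site lists. A gene was a member if its symbol was one letter followed by ARS and 1 or 2, or was EPRS1, FARSA or FARSB. The rule found 34 of the 11406 named genes, with 253 of the 93541 sites listed in either replicate. Symbols ending in 2 formed the mitochondrial set of 16 genes and the other 18 formed the cytosolic set. The rule used no measured value. In the RefSeq annotation, 37 protein-coding genes fit the rule, and FARSB, IARS2 and VARS1 were not listed under those symbols.

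The series measured N6-methyladenosine (m6A) at single bases in HEK293T cells, a cell line established from embryonic kidney. It holds 1 group, wild-type cells labelled day 0 and treated by GLORI, with 2 replicates and no second genotype, treatment or untreated library among the samples analysed here. In GLORI, unmethylated adenosine is deaminated and read as G, whereas m6A is protected and still read as A. The methylation level of a site is thus the share of A among its A and G reads. Separate cultures are not mentioned in the labels, and the spread between the replicates can be technical. The lists hold sites rather than expression values, and the identity of the cells was not checked with markers.

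Aminoacyl-tRNA synthetases join each amino acid to its tRNA, the step at which the genetic code is read. Cells hold separate enzymes for the cytosol and for mitochondria, and all of them are encoded in the nucleus. The mitochondrial enzymes serve the few proteins of the respiratory chain that are made inside the organelle. GARS1 and KARS1 are exceptions, since each of these genes gives both the cytosolic and the mitochondrial enzyme, and EPRS1 encodes a fused enzyme for glutamate and proline. m6A is laid down on nuclear transcripts by the METTL3 and METTL14 complex, mostly in a sequence class called DRACH and often near stop codons. Transcripts of both sets are therefore open to the same methylation machinery.

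Replicate 1 listed 205 member sites in 33 genes, and replicate 2 listed 226 in 32 genes. Of these, 178 sites stood in both lists at one position and strand and are called shared. They covered 30 of the 34 genes. The other 4, among them RARS1, CARS2 and RARS2, were listed with no shared site. The level of a shared site is the mean of both replicates, and the level of a gene is the mean over its shared sites. At the 178 shared member sites the replicates differed by a median of 3.95 percentage points. By Fisher's exact test on the A and G counts (two-sided, Benjamini-Hochberg over all 60462 shared sites of the series), 0 member sites passed an adjusted p of 0.05. The series as a whole had 0 calls, or 0% of the sites tested. At an unadjusted p of 0.05 the member count was 4, or 2.25%, beside 3.06% of all shared sites. At these shared sites the test thus called no difference beyond the sampling of reads. A lack of calls does not show that the spread was smaller than that. A shared site had to pass the listing limits in both replicates, so the test cannot speak for sites in 1 list alone. The replicates were counted as 1 sample, so errors below are counting errors only.

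The mitochondrial set carried more sites at higher levels than the cytosolic set. The median gene had 6 shared sites in the mitochondrial set (quartiles 3.75 to 11.25) and 2 in the cytosolic set (quartiles 1 to 3), beside 3 over all named genes. In the cytosolic set 14 of 18 genes had at most 3 shared sites, and in the mitochondrial set 4 of 16. The sets thus overlapped, but their middle ranges did not. The median level of a gene was 49.6% in the mitochondrial set (range 27.5% to 74.7%, 14 genes) and 28.1% in the cytosolic set (range 11.1% to 63.7%, 16 genes). Over all named genes it was 46.6%, so the cytosolic set lay further from the series as a whole. Of the mitochondrial genes with a level, 13 of 14 lay above the cytosolic median, whereas 2 of 16 cytosolic genes, AARS1 and CARS1, lay above the mitochondrial median. Genes are not replicates of a condition, so these are descriptions of both sets within the same libraries, with no test.

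Single sites showed the same order. Sites at 80% or more made up 35 of 123 (28.5%) in the mitochondrial set and 4 of 55 (7.27%) in the cytosolic set, beside 20.1% over all named genes. Sites under 20% made up 20 of 55 (36.4%) in the cytosolic set and 13 of 123 (10.6%) in the mitochondrial set, beside 15.2% over all. The 35 highly methylated mitochondrial sites were unevenly spread, with 15 in MARS2 and 5 each in LARS2 and PARS2. MARS2 gave its 15 from 24 shared sites, and the excess of the mitochondrial share over all named genes rested on this gene.

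**Figure D1:**
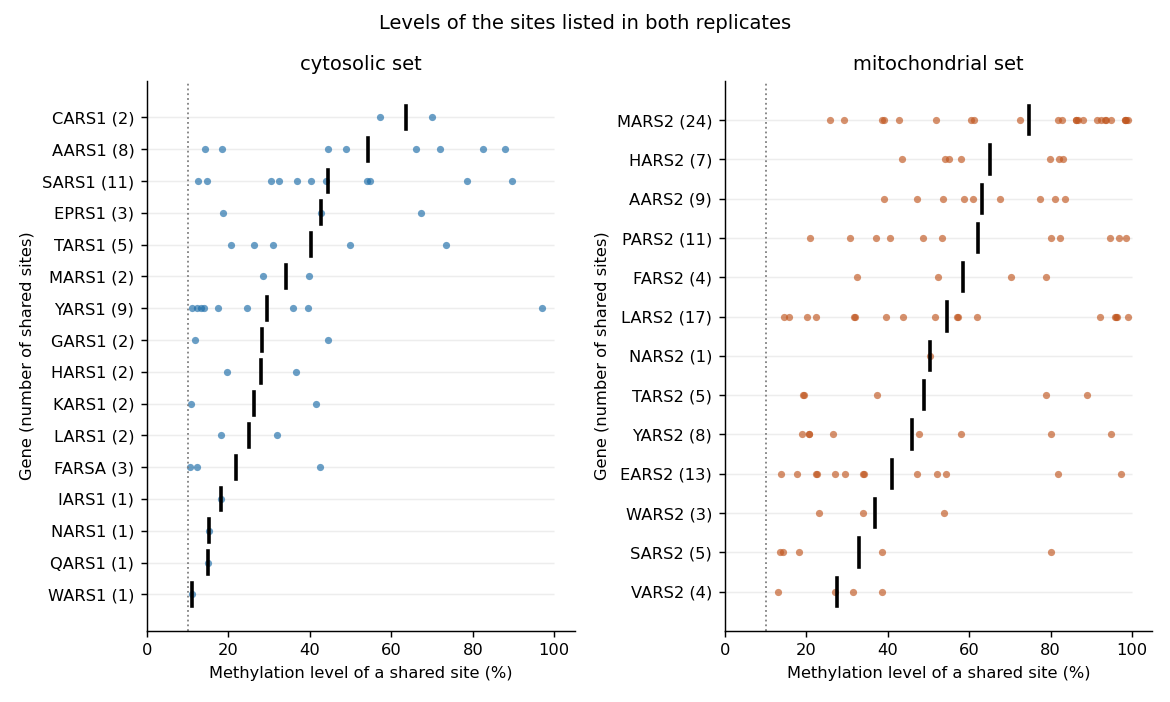
Methylation level of each shared site (percent, points) by gene, with the gene mean as a black bar and the number of shared sites in parentheses, for the cytosolic set on the left and the mitochondrial set on the right, with 13 of its 14 genes shown. The dotted line marks 10%, the lowest level listed. The gene means run from 11.1% to 63.7% in the cytosolic set and from 27.5% to 74.7% in the mitochondrial set.

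Read depth differed between the sets and bears on which sites could be listed. The deposited coverage of a gene had a median of 99.2 in the cytosolic set (range 38.6 to 352.5) and 33.7 in the mitochondrial set (range 18.7 to 115.1). The lists hold only sites with at least 15 reads, 5 A reads and a level of 10%. A site with exactly 15 reads can be listed only at 33.3% or more, and this bound falls as the reads at the site rise. Genes of low coverage still listed weak sites, such as 13.9% in EARS2 at a gene coverage of 32.1. That site itself was well read, with 130 and 166 reads in the replicates. None of the 18 cytosolic genes and 6 of the 16 mitochondrial genes lay in the lower 5 coverage deciles of all named genes. Each gene was therefore also set against the median of all named genes in its own decile. On that scale the median difference was 1 site fewer in the cytosolic set (-1) and 1.5 sites more in the mitochondrial set. For levels it was -6.04 percentage points in the cytosolic set and 3.65 points in the mitochondrial set. The gap in level between the sets, 21.5 points without regard to depth, was thus 9.69 points against the decile medians, with the same direction. The highest decile, with 8 of the 18 cytosolic genes, ran from a coverage of 127.7 to 7763.7, so the matching was coarse there. The gap in level was 12.6 points when sites listed in either replicate were used. The gap of 4 sites per gene was 2 at sites covered by 50 reads or more in each replicate. It was 1.5 when a level of at least 20% was also required. In replicate 2 alone it was 6.5, over 18 cytosolic and 14 mitochondrial genes. CARS2 and RARS2, with no site in that replicate, were left out there, so this gap is not over the same genes. In their deciles, 11 of 16 mitochondrial genes had more sites than the median and 11 of 18 cytosolic genes had fewer. Of all 11406 named genes, 5097 had more and 4696 had fewer. For levels, 9 of 14 mitochondrial genes lay above the median and 10 of 16 cytosolic genes below it. Of all 9521 named genes with a level, 4759 lay on each side. Across the 30 members with a level, Spearman's rho of level with coverage was -0.52, and it was -0.03 within the cytosolic and -0.31 within the mitochondrial set. These points share the same libraries and limits, and the values are descriptions across genes.

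**Figure D2:**
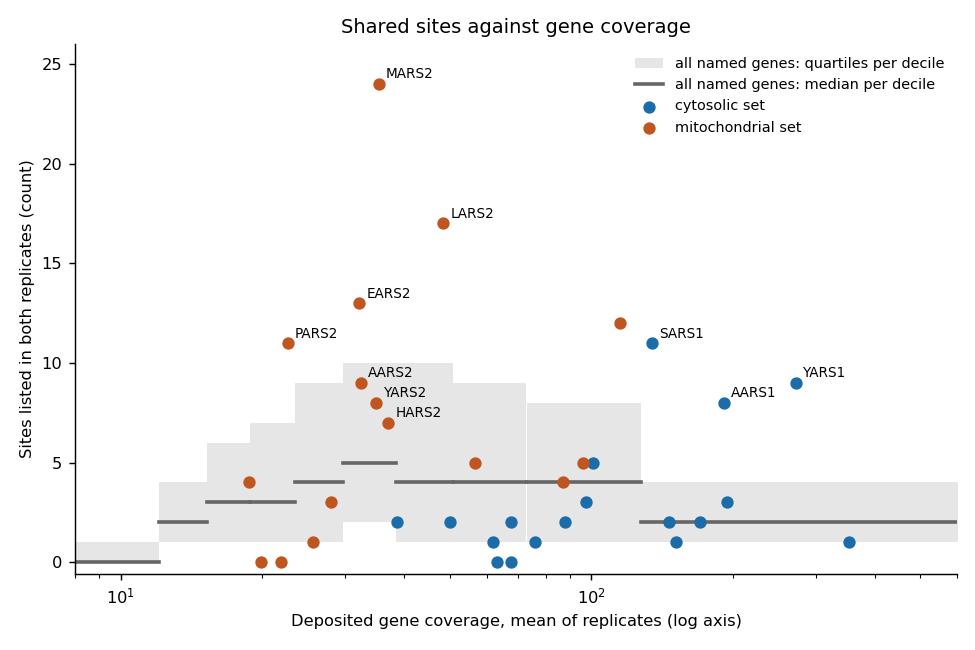
Number of shared sites per gene against the deposited gene coverage, mean of both replicates on a log axis; grey bands and lines give the quartiles and median of all named genes in each coverage decile, and most members with 7 or more sites are named. MARS2 (24 sites), LARS2 (17), EARS2 (13) and PARS2 (11) stand above the quartile band of their decile, as do SARS1 (11), YARS1 (9) and AARS1 (8) among the deeply covered cytosolic genes.

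Paired by amino acid, the mitochondrial gene had more shared sites than its cytosolic partner in 9 of 15 pairs, fewer in 3 (cysteine, serine and tyrosine) and the same number in 3 (asparagine, arginine and threonine). EPRS1 served as the partner of both EARS2 and PARS2. Both genes had a level in 12 pairs, and the mitochondrial gene was higher in 10 of them, each by over 2 counting standard errors. The exceptions were glutamate, where EARS2 differed from EPRS1 by -1.77 ± 2.93 points, within the counting error, and serine, where SARS2 lay below SARS1 by -11.5 ± 2.49 points. The mitochondrial gene was the less covered one in 14 of 15 pairs.

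**Figure D3:**
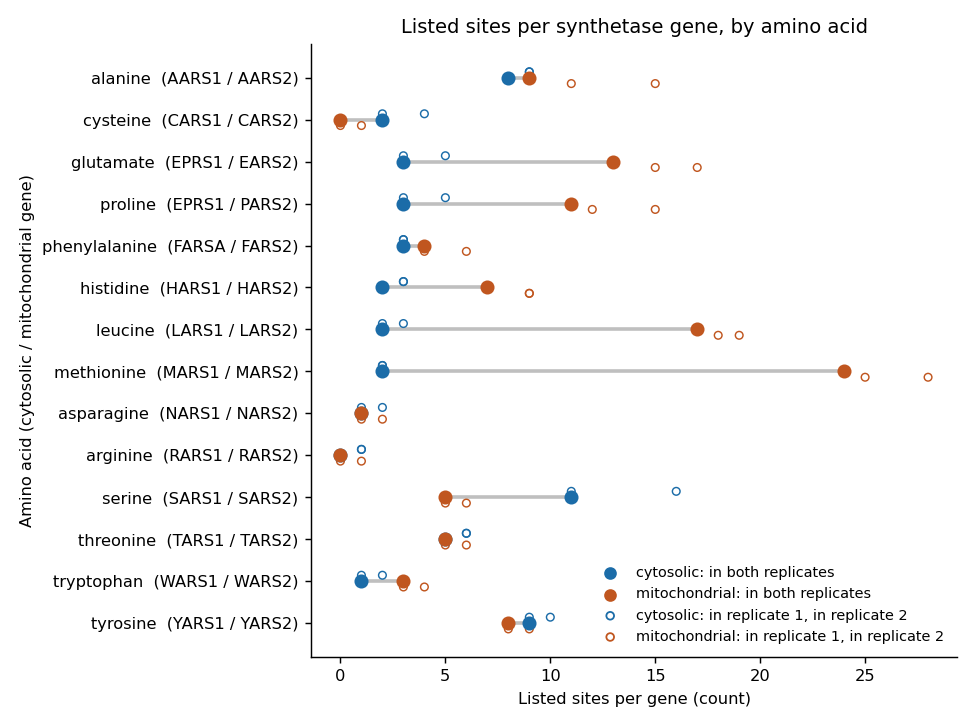
Number of listed sites per gene for 14 of the 15 amino acid pairs, cytosolic gene in blue and mitochondrial gene in orange; filled points are sites listed in both replicates and open points the counts of each replicate alone. The widest gap is that of methionine, with 2 shared sites in MARS1 and 24 in MARS2, and the widest gap the other way is that of serine, with 11 in SARS1 and 5 in SARS2.

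In 3 pairs the deposited coverage differed least between the genes, but reads at the shared sites could still differ. Median reads in replicates 1 and 2 were 91.5 and 108.5 in HARS1 and 48 and 47 in HARS2. They were 187 and 230 in TARS1 and 107 and 97 in TARS2, and nearer in LARS1 (50.5 and 48) and LARS2 (47 and 58). HARS1 and HARS2, the cytosolic and mitochondrial histidyl enzymes, had coverages of 38.6 and 37.0. HARS1 had 2 shared sites with a mean level of 28.1% ± 2.91 (counting SE), and HARS2 had 7 with 65.1% ± 1.87, a difference of 37.0 ± 3.46 points. The gene levels did not overlap between the replicates, at 26.9% and 29.3% for HARS1 and at 65.1% in both for HARS2. These genes are close copies, and how reads that match both were assigned was not stated. LARS1 and LARS2, the leucyl enzymes, had coverages of 67.4 and 48.5, with 2 sites at 25.0% ± 3.58 and 17 sites at 54.5% ± 1.04. TARS1 and TARS2, the threonyl enzymes, had coverages of 100.7 and 96.2 and 5 shared sites each. Their levels were 40.3% ± 1.60 and 48.8% ± 1.30, so this pair differed in level by 8.51 ± 2.06 points and not in number.

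The histidyl pair also lies head to head on chromosome 5. The annotated start of HARS1, on the minus strand, is 85 nt from that of HARS2, on the plus strand, so the 84 bases between them lie upstream of both genes. This stretch is chr5:140691371-140691454 of GRCh38.p14 as RefSeq gives it on the plus strand. It is shown because it serves as the upstream sequence of both genes of this pair, whose deposited coverages were close. Capitals mark TTCCGG and its reverse complement CCGGAA, the core of the element bound by ETS family transcription factors.
HARS1 to HARS2: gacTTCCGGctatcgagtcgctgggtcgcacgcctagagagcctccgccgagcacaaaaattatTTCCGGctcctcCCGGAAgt
The stretch held 3 such matches, counted on both strands. Among 35116 promoter stretches of the same length, 7.88% held at least 1 match and 0.191% held 3 or more. The motif was not part of the planned analyses, so these shares do not test it. The matches are a description of the letters, and binding was not measured. All 7 shared sites of HARS2 lay 264 to 701 nt from its annotated 3′ end and both of HARS1 lay 102 and 351 nt from its own, at the far ends from this stretch.

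MARS2, the mitochondrial methionyl enzyme, was the most heavily marked member. It had 24 shared sites at a mean of 74.7% ± 0.943, and the replicates gave 74.5% and 74.9%. The annotated gene spans 3027 nt on chromosome 2 (197705369 to 197708395, plus strand), and its sites ran from 104 to 1821 nt past the start. The sites changed in level along the gene. The first 5 shared sites, 104 to 776 nt past the start, lay between 38.7% and 61.2%, whereas 15 of the 19 from 968 nt on were at 80% or more. The highest, at 197706969, showed A in 50 of 51 reads in replicate 1 and 63 of 63 in replicate 2, a level of 99.0% (95% Wilson interval 95.2 to 99.8 on the summed counts). The site at 197706483 followed with 51 of 52 and 62 of 63 reads, 98.2%. A few sites in the same stretch were low, such as 197706742 with 6 of 20 and 8 of 37 reads, 25.8%. High and low sites therefore alternated over short distances. The deposited gene value headed CR, taken here as the conversion of unmethylated adenosine, was lowest for MARS2 among the members, at 93.4% and 93.5%. Over the 30 members with a shared site, Spearman's rho of this value was -0.73 with level and -0.84 with the number of shared sites. The sources used here do not state how conversion was computed, and its part in the levels and site numbers was not tested.

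LARS2 and PARS2, the mitochondrial leucyl and prolyl enzymes, showed the same mixture of nearly complete and weak sites. In LARS2, 16 of 17 shared sites lay 757 to 1943 nt from the annotated 3′ end, and levels there ran from 14.5% to 99.1%. The top site, at chromosome 3, 45548580, showed A in 47 of 47 and 55 of 56 reads. In the same stretch, the sites 45547987 and 45547994 stood 7 nt apart and differed widely. The first had 76 of 77 and 77 of 82 A reads (96.3%), and the second had 22 of 84 and 17 of 92 (22.3%). PARS2 had 11 shared sites at 62.1% ± 1.70, of which 5 were at 80% or more, among them 54758290 on chromosome 1 with 18 of 18 and 31 of 32 A reads.

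EARS2, the mitochondrial glutamyl enzyme, had many sites but a lower mean. Its 13 shared sites averaged 41.1% ± 1.44, below the median of its coverage decile (46.5%). One site, at chromosome 16, 23524155, stood above the rest with 74 of 76 and 98 of 101 A reads, 97.2% (93.6 to 98.8).

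Next in level after MARS2 were HARS2 and AARS2, the alanyl enzyme, with 9 shared sites at 63.2% ± 1.86. AARS2 gave 66.7% and 59.8% in the replicates. It also held 2 of the 4 member sites with an unadjusted Fisher p under 0.05, one of them at chromosome 6, 44299834, with 32 of 44 and 25 of 56 A reads (adjusted p = 1). FARS2, the phenylalanyl enzyme, had the lowest coverage of the family, 18.7, and 4 shared sites at 58.5% ± 3.21. These 4 sites fell within 166 nt of each other in a gene annotated over 521650 nt. YARS2, the tyrosyl enzyme, had 8 shared sites at 45.9% ± 1.50.

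The lowest mitochondrial levels among genes with at least 3 shared sites were those of VARS2, SARS2 and WARS2, the valyl, seryl and tryptophanyl enzymes. VARS2 had 4 sites at 27.5% ± 1.68, all within 60 nt and 97 to 157 nt from the annotated 3′ end. SARS2 had 5 sites at 33.0% ± 2.12, and 1 of them, at chromosome 19, 38915383, reached 80.1% with 36 of 41 and 34 of 47 A reads. WARS2 had 3 sites at 37.0% ± 2.49. NARS2, the asparaginyl enzyme, had 1 site, at 50.5% ± 8.25 from 19 and 17 reads. CARS2 and RARS2, at coverages of 19.9 and 22.0, had 1 site each in replicate 1 alone, at 25.8% and 25.7%.

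Among the cytosolic genes, SARS1, the seryl enzyme, had the most shared sites and the widest contrast of depth within one gene. Its 11 sites averaged 44.4% ± 1.30 and fell into separate stretches on chromosome 1. The 4 sites in the last 293 nt had 196 to 750 reads per replicate, with levels of 30.5% to 54.9%. The 6 sites between 674 and 1145 nt from the annotated start had 23 to 52 reads per replicate, with levels of 12.6% to 89.5%. The highest of these, 109214941, showed A in 25 of 28 and 35 of 39 reads. The 5′ stretch was therefore read at a small share of the depth of the 3′ end. The exon structure was not used here, and whether those reads came from spliced or unspliced RNA was not tested.

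YARS1, the tyrosyl enzyme, combined the deepest reads of any member with a single dominant site. It had 9 shared sites at a mean of 29.4% ± 0.627, of which 8 lay in the last 1 kb. The site at chromosome 1, 32775866, showed A in 439 of 451 and 527 of 546 reads, a level of 96.9% (95.6 to 97.8). Its other 8 shared sites lay between 11.1% and 39.5%. The site 21 nt away, 32775887, had 111 of 993 and 152 of 1145 A reads, 12.2%, so the pair of neighbours differed by far more than their counting error.

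AARS1, the alanyl enzyme, had the highest level among cytosolic genes with at least 3 shared sites. Its 8 sites averaged 54.3% ± 0.998, and 7 of them lay within 547 nt of the annotated 3′ end on chromosome 16. The top sites were 70252725, with 79 of 90 and 89 of 101 A reads (87.9%), and 70252638, with 223 of 266 and 231 of 284 (82.6%). AARS1 lay 23.3 points above the median of its coverage decile. AARS2 was higher still by 8.91 ± 2.11 points, at coverage 32.4 against 191.4.

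EPRS1 and TARS1 were intermediate. EPRS1 had 3 shared sites at 42.8% ± 2.56, one of which, 219997097 on chromosome 1, gave 24 of 43 and 33 of 42 A reads (unadjusted Fisher p = 0.0374, adjusted p = 1). TARS1 had 5 sites from 20.8% to 73.5%. FARSA, the catalytic subunit of the cytosolic phenylalanyl enzyme, was the lowest of the cytosolic genes with at least 3 sites, at 21.8% ± 1.29. Its sites at 12922596 and 12922589 on chromosome 19, 7 nt apart, had 12.4% and 42.4%. CARS1, the cysteinyl enzyme, had the highest level of any cytosolic gene, 63.7% ± 2.66, from 2 sites.

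The other cytosolic genes had at most 2 shared sites each, at weak to middling levels. QARS1, the glutaminyl enzyme, had the highest coverage of the family, 352.5, and 1 shared site with 446 and 520 reads at 15.1% ± 1.16. WARS1, the tryptophanyl enzyme, had 1 site at 11.1% ± 1.86, and NARS1, the asparaginyl enzyme, had 1 at 15.3% ± 2.72. IARS1, the isoleucyl enzyme, had 1 site at 18.1% ± 3.98. GARS1 and KARS1, the genes that serve both compartments, had 2 sites each, at 28.2% ± 3.34 and 26.2% ± 4.19. The cytosolic median was 28.1% with these genes and 28.8% without them. One site in each was higher, at 44.6% in GARS1 and 41.4% in KARS1. That KARS1 site is its first annotated nucleotide, and its other site stood at 10.9%. RARS1, the arginyl enzyme, had 2 sites, each in 1 replicate alone. The valyl gene VARS1, outside the rule because the lists carry its older symbol VARS, had 2 shared sites at 25.8% ± 1.48.

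The sites also differed in place along the annotated genes. In the cytosolic set 32 of 55 shared sites (58.2%, 95% Wilson interval 45.0 to 70.3) lay within 1 kb of the annotated 3′ end, and in the mitochondrial set 37 of 123 (30.1%, 22.7 to 38.7), beside 22.7% over all named genes. Distances are genomic, introns included, and sites of a gene are not independent. Of the 32 cytosolic sites, YARS1 gave 8 and AARS1 gave 7. MARS2 alone gave 24 mitochondrial sites, none of them within 1 kb of the 3′ end. HARS2, TARS2 and VARS2, in contrast, had all their shared sites there.

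**Figure D4:**
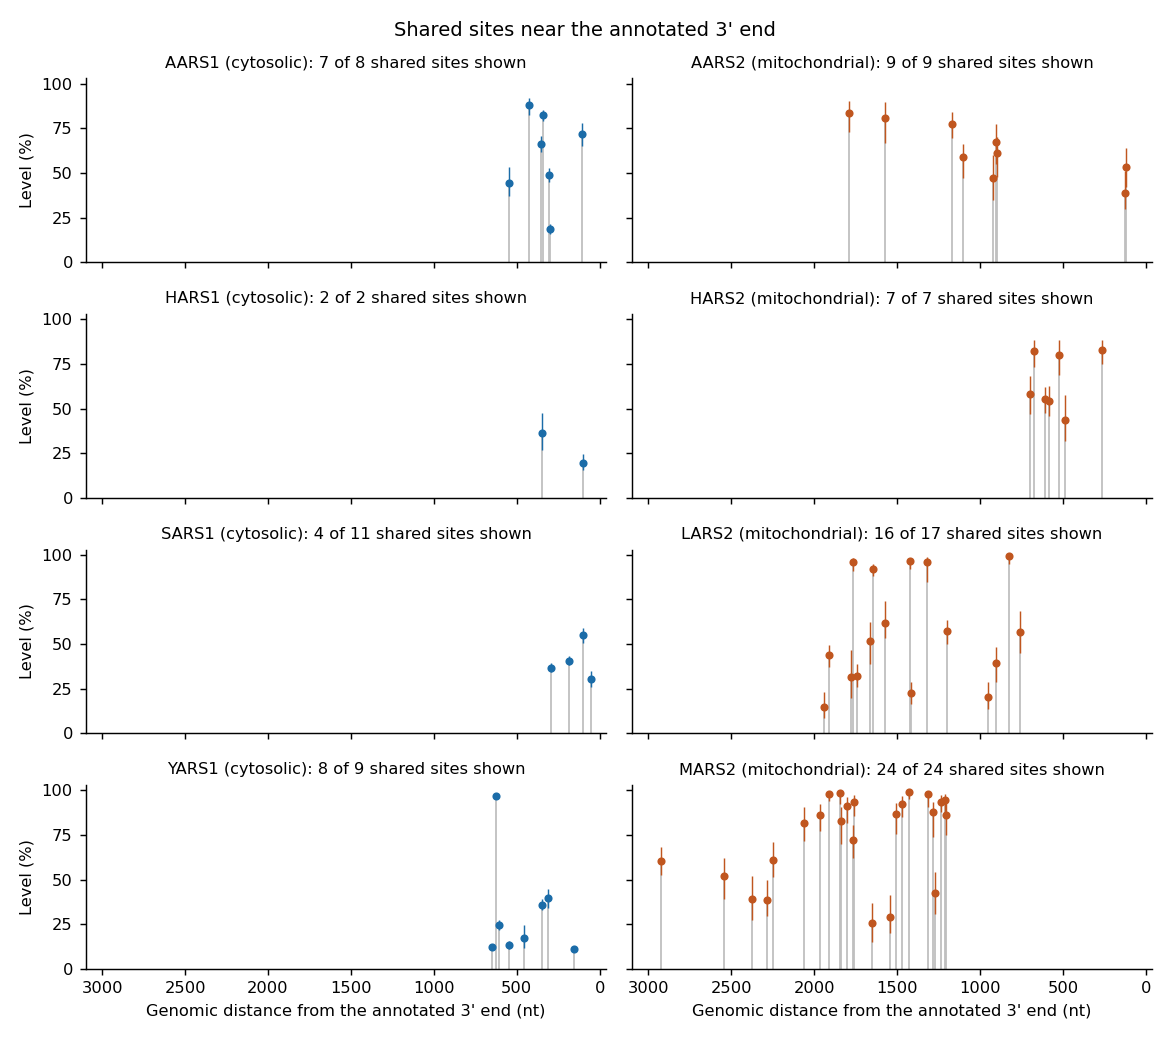
Level (percent) of shared sites against genomic distance from the annotated 3′ end (nt, 3′ end at right) for 4 cytosolic genes on the left and 4 mitochondrial genes on the right; bars are 95% Wilson intervals on the summed counts. The cytosolic sites shown lie in the last 648 nt, with 8 of 9 in YARS1, 7 of 8 in AARS1 and 4 of 11 in SARS1. The sites of LARS2 and MARS2 extend from 757 and 1205 nt upwards. All 7 sites of HARS2 lie at 264 to 701 nt, and those of AARS2 extend from 118 nt upwards.

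A separate group of sites lay at the very start of the annotated genes, up to 60 nt from it. The cytosolic set had 11 such sites in either replicate, of which 7 were shared, and the mitochondrial set had 2, in EARS2 and RARS2, of which 0 were shared. They made up 12.7% of the shared cytosolic sites and 0% of the mitochondrial ones, beside 1.44% over all named genes. Median gene coverage was 99.2 in the cytosolic and 33.7 in the mitochondrial set, and its part in these counts was not tested. Levels of these start sites were low to middling, from 11.2% to 41.4% in the cytosolic set. MARS1, the cytosolic methionyl enzyme, had both its shared sites there, so its contrast with MARS2 is also one of place. KARS1 had 41.4% at its first annotated nucleotide, from 10 of 24 and 7 of 17 A reads. AARS1 had 14.2% and YARS1 14.1% at theirs. An adenosine at the cap-adjacent first position is often methylated by another enzyme, PCIF1, on a ribose-methylated nucleotide (m6Am), and which modification these sites carry was not tested.

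RefSeq promoter windows, 250 bases before to 50 after a start in GRCh38.p14, were at hand for 28 of the 34 members and held 13 member sites. They are shown for KARS1, AARS1 and SARS1 as starts that carry a listed site, with the site as a capital A and 10 bases on each side.
KARS1: tatcctccttActtttgggtc
AARS1: tgaggccggtAcagctgcgcg
SARS1: tgcggcggtcAcaggctgagt
The KARS1 and AARS1 sites are the first annotated nucleotide and the SARS1 site lies 14 nt after the annotated start of its window. The DRACH class (A, G or T, then A or G, A, C, and A, C or T) was absent from all 13 member sites, beside 23.5% of the 1610 sites of named genes in such windows with the bases at hand. At the 563 sites of the series on a first annotated nucleotide it was 1.24%.

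Several cytosolic promoter windows shared a stretch of 8 letters, TTGCATCA, which was looked for after the site windows had been seen. It is close to the C/EBP-ATF response element, through which ATF4 is known to raise transcription of cytosolic synthetase genes when amino acids are short. The stretch is printed in capitals for all 6 members that hold it or its reverse complement TGATGCAA in their windows, each on the strand of its gene. Its first base lay at -187 from the start in AARS1 and from -13 to 14 in the others.
MARS1: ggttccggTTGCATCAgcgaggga
IARS1: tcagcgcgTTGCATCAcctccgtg
TARS1: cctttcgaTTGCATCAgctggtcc
CARS1: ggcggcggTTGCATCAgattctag
AARS1: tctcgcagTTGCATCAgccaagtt
NARS1: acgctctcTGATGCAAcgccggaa
These were 6 of 15 cytosolic genes with a window (40%) and 0 of 13 mitochondrial genes, beside 295 of 27305 genes of the promoter table (1.08%). With any base at the third position, TTNCATCA, the counts were 7 of 15, with GARS1 added, and 1 of 13, YARS2, beside 4.46%. In MARS1, IARS1 and TARS1 the A that follows TTGC was itself a listed site. At MARS1 it is the first annotated nucleotide (39.8% from 8 of 19 and 6 of 16 reads). At IARS1 it lies 9 nt before the annotated start (18.1%), and at TARS1 it was listed in replicate 1 alone (19.2%). In all promoter windows of the series, 3 of 1617 listed sites fell on this A, and they were these 3. Because the stretch was picked after these site windows were seen, neither this count nor the shares above can test it. A match is a description of the letters, and neither binding of a factor nor start site use was measured.

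Of 22 genes that act beside the synthetases, fixed by symbol, 19 were listed and 15 had shared sites, 55 in all. The median listed gene had 2 shared sites and the median level was 40.4%. Among the scaffold proteins of the multi-synthetase complex, AIMP1 had 3 sites at 36.4% ± 4.16 and AIMP2 had 2 at 73.9% ± 2.17, while EEF1E1 was not listed. Among the factors that receive charged tRNA, EEF1A1 had 4 sites at 42.3% ± 2.08, and EEF1D, an exchange factor, had 14 at 50.2% ± 1.29. TSFM, the mitochondrial exchange factor, had 6 sites at 67.7% ± 2.12, whereas TUFM, its mitochondrial partner, had 2 at 34.5% ± 0.755. GATC, a subunit of the mitochondrial amidotransferase that makes glutaminyl-tRNA, had 7 sites at 47.6% ± 1.66, and its partners GATB and QRSL1 had 1 and 2, at 18.9% and 21.6%. Higher counts were thus seen in some mitochondrial partners and not in others.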

How the data were processed

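The authors deposited 1 list of called sites per replicate. Per the file headers, a line holds the counts of A plus G and of A reads at a site, the fraction of A, a fraction headed CR (taken here as conversion) and the coverage signal of the gene, and p-values raw and adjusted. The sources used here do not state how gene coverage and conversion were computed. GRCh38, STAR, Bowtie, SAMtools and Trim Galore 0.6.6 appear in the submitters' processing notes, without roles. The smallest listed values were 15 reads, 5 A reads and 10%, so the lists are not the depth of the libraries. Per the labels' protocols, 100 to 200 ng of mRNA went into each library.

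Sites were joined by chromosome, position and strand, and levels averaged. Gene errors are counting standard errors, and single sites carry 95% Wilson intervals on summed counts. Both cover counting error only. Fisher's exact test (scipy 1.17.1) ran on every shared site with Benjamini-Hochberg adjustment at 0.05, and was first tested on simulated data. Named in full were, per set, the 5 genes with most shared sites, the 3 highest and 3 lowest levels among genes with at least 3, and the 3 highest sites covered by 50 reads or more in each replicate. Other genes were chosen after their values were seen. Gene ends and sequences came from NCBI RefSeq (GRCh38.p14). Transcript regions and protein sequences were not used here, and the values of 1 pair are not reported here by gene. The members and lists were chosen with earlier results of these data known.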

Additional observations from a re-analysis of the deposited data

How the results depend on the processing

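The mitochondrial median stayed above the cytosolic one under all 14 alternatives for sites per gene and all 15 for levels. The difference in sites, 4, was 1.5 with at least 50 reads and a level of at least 20% in both replicates, a setting chosen after seeing the data. With 1 replicate left out it was 3.5 to 6.5, the latter without replicate 1. Genes with no site in the remaining replicate were dropped there. This left 14 mitochondrial genes without replicate 1 and 17 cytosolic genes without replicate 2. The difference in level, 21.5 points, was 23.9 at 30 reads or more, 24.7 at 50 or more, 16.9 at levels of at least 20%, 12.6 with sites listed in either replicate, 9.69 against the coverage decile, 16.8 with the median of a gene's sites, 27.1 with summed reads and 18.3 with both limits. It was 16.1 to 19.0 with 1 replicate left out. Leaving out MARS2, LARS2 and EARS2 gave 3 sites and 20.7 points. The cytosolic share within 1 kb of the 3′ end was 76.3% at 50 reads or more. The cause of these shifts was not tested. The chi-square test and the limit of 50 reads also gave 0 calls between the replicates, with 5 and 1 sites at an unadjusted p under 0.05. No paired analysis was possible because the labels give 1 group. Unlisted sites may lack depth or methylation, and the spread between cultures is unknown.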

Other observations

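Among the member sites listed in only 1 replicate, 27 were in replicate 1 and 48 in replicate 2, with a median level of 20% and a median of 36 reads. The larger count in replicate 2 was not particular to the members. Of the member sites of replicates 1 and 2, 86.8% and 78.8% were shared, beside 84.2% and 75.5% over all named genes. Of the 75 member sites in 1 list alone, 9 stood at 70% or more, where the limits on A reads and level would not by themselves keep a site off the other list. At chromosome 3, 45547958, in LARS2, replicate 1 showed A in 60 of 64 reads (93.8%, 95% Wilson interval 85.0 to 97.5) and replicate 2 had no line. The site 8 nt before it, 45547950, showed A in 37 of 48 reads, also in replicate 1 alone. In PARS2 on chromosome 1, 54758264 showed A in 29 of 29 reads in replicate 2 alone and 54757899 in 18 of 18 in replicate 1 alone. In MARS2 on chromosome 2, 197707142 showed A in 44 of 59 reads in replicate 2 alone. In SARS1 on chromosome 1, 109214823 had 20 of 21 A reads in replicate 2 alone. The lists do not say why a position is missing from one of them.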
